A study of Homo sapiens with 8 samples.

Results

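The 30 genes described here encode the glucose transporter SLC2A1, the glycolytic enzymes, the lactate dehydrogenases, the lactate transporters SLC16A1 and SLC16A3, and the PFKFB and PDK regulators of the pathway. They were chosen by name as a pathway, at a time when earlier results of these data were known, and all 30 were found by symbol among the 58233 genes of the count table. The cells were MCF10A, an immortalized mammary epithelial line that does not form tumours on its own, into which the H-Ras oncogene had been introduced. RNA-seq compared control (WT) cells with RBM6-KO1 cells, a knockout of the splicing factor RBM6 made by paired nicking with a Cas9 nickase in exon 3 of the gene. Each genotype was sampled untreated and 12 h after 5 Gy of X-ray irradiation (IR), with 2 replicates, named A and B, in each of the 4 groups, so that 8 libraries were compared. All groups carried H-Ras and grew in medium with horse serum, EGF, hydrocortisone, cholera toxin and insulin. RBM6-KO1 is 1 clone grown from a single sorted cell, so an effect of the deletion and a difference of this clone cannot be told apart.

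Glycolysis splits glucose into pyruvate in a series of steps that yield ATP and NADH, and lactate dehydrogenase turns pyruvate and NADH into lactate and NAD so that the pathway can go on. Cells take up glucose through transporters, trap it with hexokinase, commit it at phosphofructokinase and release lactate through monocarboxylate transporters. Proliferating and Ras-transformed cells are known for a high rate of this pathway even with oxygen present. PFKFB enzymes make and remove the sugar phosphate that activates phosphofructokinase, and PDK enzymes switch off pyruvate dehydrogenase and so hold pyruvate back from the mitochondria.

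Libraries held between 15355281 and 29832009 counts on genes. RBM6 itself lay between 61.5 and 68.8 normalized CPM (counts scaled to a common library size) in the 4 untreated libraries and between 33.9 and 54.5 in the 4 libraries after IR. Its log2 difference between RBM6-KO1 and untreated control cells was -0.14 (SE 0.15, adjusted p = 0.712, by the quasi-likelihood test of edgeR adjusted by Benjamini-Hochberg), so that the gene's total count does not show the deletion. All 10 markers of basal mammary epithelium were above 1 CPM in every library, while COL1A2, COL3A1 and LUM of fibroblasts, VWF and CDH5 of endothelium, and 4 of 5 leukocyte markers, CD3E among them with 0 counts, were below 1 CPM in all. Markers also differed between the genotypes in untreated cells. EPCAM, an epithelial adhesion gene, was lower in RBM6-KO1 cells (-1.79, log2 scale) and KRT14 higher (0.78). CD14 of leukocytes was lower (-1.81), KDR of endothelium was lower (-3.98), and DCN of fibroblasts was higher (0.91), and all of these passed the threshold. COL1A1 of fibroblasts was at -0.74 and did not pass. PECAM1 of endothelium, above 1 CPM in every library, was at 1.16 and did not pass. After IR, EPCAM (-1.82), KDR (-3.41) and DCN (1.11) passed in the same direction, and PECAM1 was at 1.56 without passing. The summed level of the 6 fibroblast markers ran from 81.0 to 81.6 CPM in control and from 119 to 155 in RBM6-KO1 libraries untreated, and from 91.1 to 108 and from 173 to 211 after IR, with DCN the marker that was higher in RBM6-KO1 cells. Of the 10 basal epithelial markers, 7 were below 0 between untreated genotypes and 9 after IR, beside 49% and 47.7% of all genes. Their summed level ran from 11649.8 to 14230.5 CPM in control and from 10761.7 to 10900.8 in RBM6-KO1 libraries untreated. After IR it ran from 10999.4 to 11747.5 and from 9133.9 to 9566.0. The part of these markers in the results on the 30 genes was not tested. After IR, replicate B lay below replicate A in both genotypes for 14 of the 30 genes, ENO1, PKM, ALDOA, TPI1 and GAPDH among them, and above it in both for 7, among them HK2 and PFKFB2. Over all genes kept, 71.9% had the same sign of this replicate difference in both genotypes. In bulk RNA a lower level per cell and fewer cells expressing a gene cannot be told apart.

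Normalized CPM was set on all 8 libraries, and levels were compared between genes only as CPM per kilobase (kb) of exon. In untreated control cells GAPDH, which oxidises glyceraldehyde phosphate, had the highest level of the 30 genes, at 989 CPM per kb. ENO1, the main enolase, followed at 544 CPM per kb and ALDOA, the main aldolase, at 451. LDHB was at 295 and PKM, the pyruvate kinase, at 293, values closer to each other than their replicates were. TPI1, the triose phosphate isomerase, was at 232 and LDHA at 226. These 7 genes form the part of the pathway from the splitting of the hexose to lactate, together with PGK1 at 75.4 and PGAM1 at 57.5.

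The genes of the first steps and of lactate export had these levels per kb. SLC2A1 was at 10.3 CPM per kb in untreated control cells, HK1 at 58.4 and HK2 at 5.21. PFKP was at 66.2, above PFKL at 18.3 and PFKM at 17.3, the other two phosphofructokinase subunits. SLC16A3, the lactate exporter MCT4, was at 106 and SLC16A1, the transporter MCT1, at 20.0. GPI and PGM1, which interconvert hexose phosphates, were at 33.6 and 31.9, and G6PC3, a glucose phosphatase, at 9.86. The lowest levels belonged to the regulators and the minor isozymes. PFKFB3 was at 7.71, ALDOC at 6.21, BPGM at 4.30, PFKFB4 at 2.27, PDK4 at 1.81, ENO2 at 1.65, PFKFB2 at 1.29, PDK2 at 0.973, PDK1 at 0.784 and PDK3 at 0.204. The 30 genes together took 1.49% to 1.71% of all counts on genes in a library.

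The comparison of untreated RBM6-KO1 with untreated control cells asked which of these genes depend on genotype without damage. SLC2A1, PFKP and ALDOC fell in RBM6-KO1 cells, to 0.546, 0.667 and 0.497 of the control level, and no gene of the 30 rose. The 3 genes encode the main glucose transporter of most cultured cells, the platelet-type phosphofructokinase and the brain-type aldolase. Among all 15556 genes tested, 6.12% passed in this comparison (3.73% lower and 2.38% higher), so that 3 of 30 is a share not far from the background. The median log2 fold change of the 30 genes was -0.06, beside 0.01 over all genes tested, and 22 of the 30 lay within 0.3 of 0 on the log2 scale. Only ALDOC of the 30 changed by at least 2-fold, beside 3.12% of all genes.

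SLC2A1 (ENSG00000117394, GRCh38 chromosome 1, 42925353 to 42958893, minus strand) was at 68.9 and 66.8 normalized CPM in control libraries A and B untreated and at 84.4 and 81.4 after IR. In the RBM6-KO1 libraries the values were 40.4 and 34.2 CPM untreated and 43.4 and 52.7 after IR. All 4 RBM6-KO1 libraries lay below all 4 control libraries. The log2 difference of RBM6-KO1 from control was -0.87 untreated (SE 0.16, adjusted p = 0.00230 by edgeR quasi-likelihood and Benjamini-Hochberg). After IR it was -0.78 (SE 0.17, adjusted p = 0.0982 by edgeR quasi-likelihood), which did not pass.

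PFKP (ENSG00000067057, chromosome 10, 3066333 to 3137718, plus strand) was at 511 and 518 normalized CPM in control libraries A and B untreated and at 596 and 540.2 after IR. In the RBM6-KO1 libraries the values were 366 and 327 CPM untreated and 382 and 407 after IR. Here too every RBM6-KO1 library was below every control library. The log2 difference was -0.58 untreated (SE 0.14, adjusted p = 0.0147 by edgeR quasi-likelihood) and -0.52 after IR (SE 0.15, adjusted p = 0.201). The untreated call was lost when either control library was left out, with adjusted p = 0.124 by edgeR without replicate A and 0.284 without replicate B at log2 differences of -0.59 and -0.56.

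ALDOC (ENSG00000109107, chromosome 17, 28573115 to 28576948, minus strand) was at 15.0 and 17.5 normalized CPM in control libraries A and B untreated and at 21.0 and 15.8 after IR. In the RBM6-KO1 libraries the values were 8.11 and 8.16 CPM untreated and 10.6 and 9.70 after IR. The 4 RBM6-KO1 libraries again lay below the 4 control libraries, as they also did for PFKFB4, which did not pass. The share of all genes with this separation was not counted. The log2 difference was -1.01 untreated (SE 0.21, adjusted p = 0.00697 by edgeR quasi-likelihood) and -0.84 after IR (SE 0.22, adjusted p = 0.172). The gene RSKR overlaps ALDOC on the same strand, and its row held 240 counts over the 8 libraries beside 2051 for ALDOC.

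**Figure D1:**
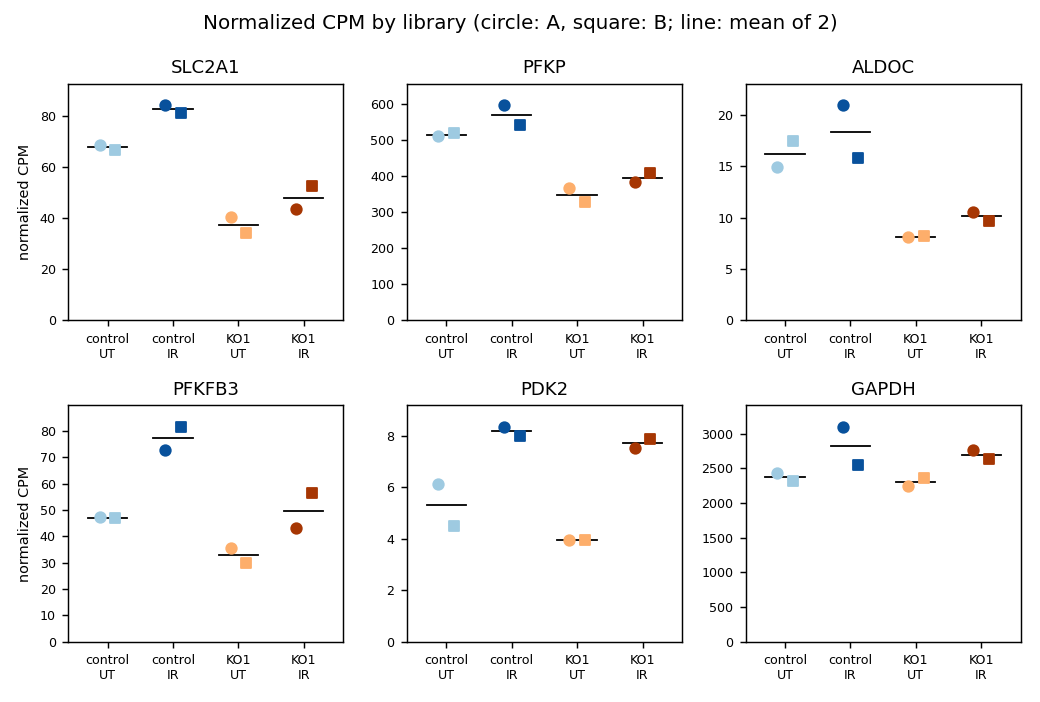
Normalized CPM in each library (circle for replicate A, square for replicate B, line for the mean of 2) for the 5 genes that passed a test and for GAPDH, with each vertical axis starting at 0. All 4 RBM6-KO1 libraries lie below all 4 control libraries for SLC2A1, PFKP and ALDOC, and GAPDH runs from 2239 to 3096 CPM.

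The stretches upstream of ALDOC and SLC2A1 are shown because ALDOC and SLC2A1 had the lowest adjusted p-values of the 30 genes, and because hypoxia-inducible factor and MYC, known regulators of glycolytic genes, bind short motifs in such regions. The sequences are from RefSeq (GRCh38.p14), 5′ to 3′ on the minus strand, with matches to ACGTG or GCGTG on either strand, the letters at the centre of hypoxia response elements, in capitals. They leave out bases inside the annotated gene body.
ALDOC, chr17:28576949-28577145: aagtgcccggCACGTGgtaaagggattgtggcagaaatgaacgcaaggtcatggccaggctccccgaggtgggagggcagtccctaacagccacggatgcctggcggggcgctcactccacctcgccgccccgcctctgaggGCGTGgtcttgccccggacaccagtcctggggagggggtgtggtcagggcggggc
SLC2A1, chr1:42958894-42959118: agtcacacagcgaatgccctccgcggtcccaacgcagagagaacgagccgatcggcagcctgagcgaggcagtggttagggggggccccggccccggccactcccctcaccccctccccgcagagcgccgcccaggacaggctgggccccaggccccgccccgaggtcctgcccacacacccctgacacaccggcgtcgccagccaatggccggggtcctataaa
The first capitals of ALDOC spell CACGTG, the E-box read by MYC. This E-box holds both orientations of ACGTG, so that the printed stretch has 3 core matches by orientation. The full ALDOC window of 250 bases has 5, counting the 53 bases left out here. The SLC2A1 stretch has none of these letters.

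RefSeq windows of 250 bases before a start site matched 28 of the 30 genes, with 60 windows in all, and SLC16A1 and PFKFB2 had none. At least 1 match to ACGTG or GCGTG stood in 33 of the 60 windows (55%), beside 43.2% of the 35116 windows of all genes. CACGTG stood in 10 of the 60 (16.7%), beside 6.34% of all windows. Of the 28 genes, 23 had a core match in at least 1 window, GAPDH, LDHA and PGK1 among them, while LDHB, PDK4, PGAM1, PKM and SLC2A1 had none. Of the genes that fell in untreated RBM6-KO1 cells, ALDOC and PFKP had a match and SLC2A1 had none. The windows share base composition and, for genes with several starts, sequence. A part of hypoxia-inducible factor or MYC in the levels was not tested.

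The other genes of uptake and the first steps differed less between untreated genotypes. HK1, the hexokinase of most tissues, was at 377 and 426 CPM in control cells and 339 and 331 in RBM6-KO1 cells, a log2 difference of -0.27 (SE 0.14) that did not pass. HK2, the inducible hexokinase, differed by 0.07 and G6PC3 by -0.01. PGM1 differed by -0.16 and GPI by 0.03. The hexokinase and glucose phosphate genes thus held 4 values within 0.3 of 0, with no member passing.

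Among the phosphofructokinases PFKL differed by 0.10 and PFKM by -0.05 on the log2 scale, beside the fall of PFKP. As a share of the 3 phosphofructokinase genes per kb, PFKP took 65.0% ± 0.437 (SD, n = 2) in control and 54.9% ± 0.940 in RBM6-KO1 cells, both untreated. After IR its share was 66.1% ± 0.499 in control and 55.6% ± 0.768 in RBM6-KO1 cells. The PFKP shares of the 4 control libraries did not overlap those of the 4 RBM6-KO1 libraries, with an overall range from 54.2% to 66.5%. PFKL took 18.0% ± 0.691 in control and 24.5% ± 2.74 in RBM6-KO1 cells, untreated. ALDOC took 1.36% ± 0.154 of the aldolase level in control and 0.697% ± 0.0632 in RBM6-KO1 cells, untreated, ALDOA making up the rest. With 2 libraries in a group the smallest two-sided exact permutation p is 0.333, so these shares are given without a test.

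Apart from ALDOC, the genes from aldolase to lactate did not pass between untreated genotypes. ALDOA differed by -0.03 and TPI1 by 0.04 on the log2 scale, and none of the 7 genes from GAPDH to PKM passed, with values from -0.16 for PGAM1, the phosphoglycerate mutase, to 0.24 for ENO2, the neuronal-type enolase. Between these lay PGK1 at -0.06, GAPDH at -0.06, ENO1 at -0.06, PKM at 0.03 and BPGM, which makes bisphosphoglycerate, at 0.04. LDHA, the isozyme that favours lactate formation, differed by 0.03 and LDHB by -0.000215. Of the lactate transporters, SLC16A1 differed by -0.12 and SLC16A3 by -0.10.

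The 3 PFKFB genes were all lower in each untreated RBM6-KO1 library than in each untreated control library, yet none passed. PFKFB3 differed by -0.53 (SE 0.17, adjusted p = 0.0722 by edgeR quasi-likelihood), PFKFB2 by -0.55 (SE 0.23, adjusted p = 0.197) and PFKFB4 by -0.41 (SE 0.22, adjusted p = 0.349). Among the PDK genes, PDK4 was at 6.08 and 10.4 CPM in control and 4.90 and 5.03 in RBM6-KO1 cells, untreated, a log2 difference of -0.75 (SE 0.28) that did not pass. PDK2 differed by -0.44, PDK1 by 0.27 and PDK3 by 0.01. Over the 30 genes the libraries of the untreated genotypes did not overlap for 11 lower genes and 2 higher genes, PFKL and LDHA, beside 23.9% and 23.8% of all genes tested.

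After IR the same genotypes were compared in libraries that the untreated comparison did not use. None of the 30 genes passed by edgeR quasi-likelihood and Benjamini-Hochberg, beside 1.21% of the 15587 genes tested, and DESeq2 called 1, SLC2A1 (adjusted p = 0.0236). With the replicate letter as a block in edgeR, 6 passed, all lower, beside 2416 of the 15587 genes. No label says that a letter marks a shared day or batch. At an unadjusted threshold of 0.05, 5 of the 30 were below it, beside 11.1% of all genes. The median log2 difference of the 30 genes was 0.01, beside 0.02 over all genes tested. PFKFB3 differed by -0.63 (SE 0.19), PFKFB2 by -0.58 (SE 0.29), PFKFB4 by -0.33 (SE 0.23) and PDK4 by -0.81 (SE 0.27). The largest positive value was that of ENO2, 0.30 (SE 0.25). Without replicate B of control cells after IR, SLC2A1 differed by -0.81, ALDOC by -1.05 and the median was -0.13. Without replicate A of control cells PDK4 differed by -1.01 and the median was 0.057.

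The RBM6-KO1 libraries lay below the control libraries without overlap after IR for 8 of the 30 genes (20.2% of all genes tested) and above for 2, PGK1 and BPGM (18.5%). The 8 lower genes, SLC2A1, HK1, PFKP, ALDOC, PFKFB3, PFKFB4, PDK2 and PDK4, were also lower without overlap in the untreated comparison. Thus 8 of the 30 genes were lower in both. Over all genes, 3154 of 15587 were lower without overlap after IR, and 1940 of the 14844 tested in both (13.1%) were lower in both. No member was higher without overlap in both, beside 10.3% of genes. The 8 genes comprise the glucose transporter, a hexokinase, a phosphofructokinase, an aldolase, both PFKFB genes of highest level per kb and a pair of PDK genes. No gene of the steps from TPI1 to lactate export is among them. Lack of overlap did not follow size. After IR HK1 differed by -0.19 (SE 0.15) and PDK2 by -0.08 (SE 0.21), while PFKFB2, at -0.58, overlapped.

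**Figure D2:**
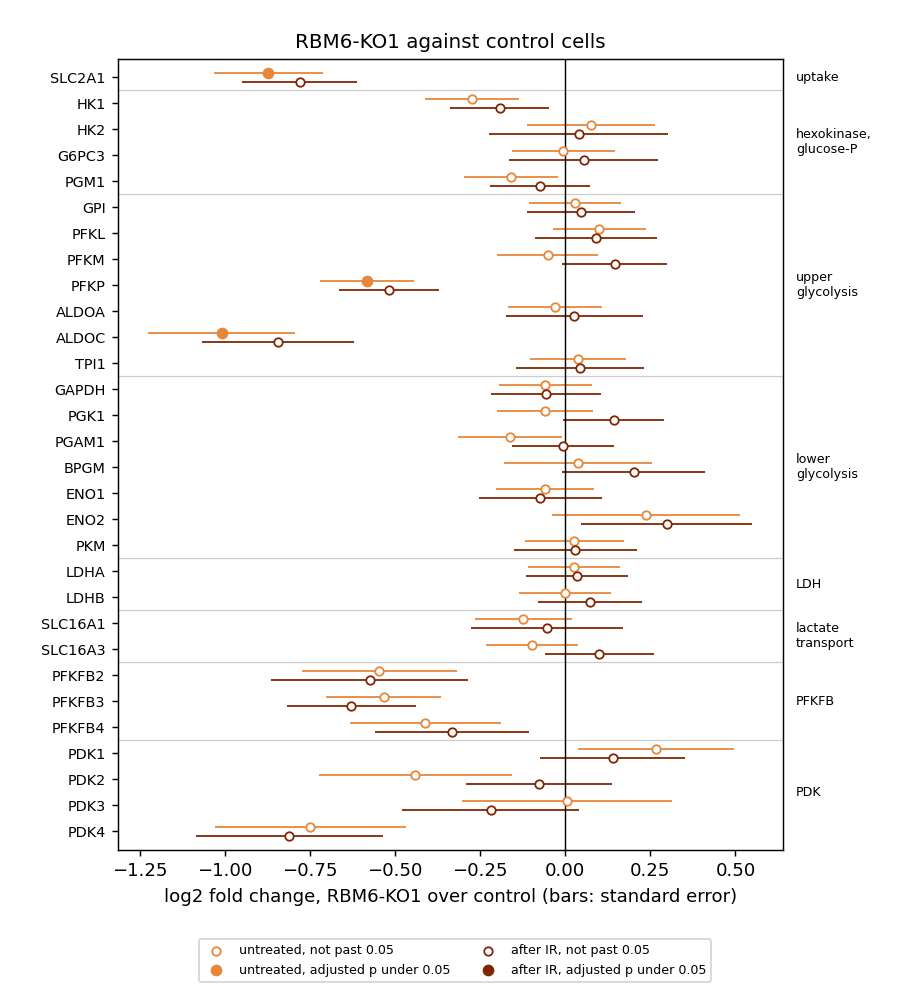
Log2 fold change of RBM6-KO1 over control for each of the 30 genes, untreated and after IR, with bars for the standard error and filled points for adjusted p under 0.05 by edgeR quasi-likelihood. SLC2A1, PFKP and ALDOC are the filled points, at -0.87, -0.58 and -1.01 in untreated cells, and most genes from TPI1 to LDHB lie near 0 in both comparisons.

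The response to IR was compared within each genotype. In control cells PFKFB3, the PFKFB isozyme with the strongest kinase activity, rose by 1.63-fold 12 h after IR, and in RBM6-KO1 cells PDK2, a widely expressed PDK isozyme, rose by 1.93-fold. Among all genes tested 5.72% passed in control cells (2.81% higher and 2.91% lower) and 5.67% in RBM6-KO1 cells (2.44% higher and 3.23% lower), so that 1 of 30 is a share near the background in each. No member fell past the threshold in either genotype, and no change reached 2-fold, beside 3.59% of all genes in control and 3.11% in RBM6-KO1 cells. The median log2 fold change of the 30 genes was 0.15 in control cells, beside 0.02 over all genes tested. In RBM6-KO1 cells it was 0.20, beside -0.01.

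PFKFB3 (ENSG00000170525, chromosome 10, 6144934 to 6254644, plus strand) was at 47.3 and 47.0 normalized CPM in control libraries A and B untreated and at 73.0 and 81.6 after IR. In the RBM6-KO1 libraries the values were 35.6 and 29.9 CPM untreated and 43.1 and 56.5 after IR. In each genotype both libraries after IR were above both untreated libraries. The log2 fold change was 0.70 in control cells (SE 0.17, adjusted p = 0.0350 by edgeR quasi-likelihood) and 0.59 in RBM6-KO1 cells (SE 0.19, adjusted p = 0.0834). The call in control cells was lost without either untreated control library, with adjusted p = 0.249 by edgeR without replicate A and 0.331 without replicate B at log2 fold changes of 0.69 and 0.71. PFKFB3 took 68.4% ± 0.454 (SD, n = 2) of the PFKFB level per kb in untreated control cells and 74.2% ± 0.995 after IR.

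PDK2 (ENSG00000005882, chromosome 17, 50094737 to 50112152, plus strand) was at 6.14 and 4.51 normalized CPM in control libraries A and B untreated and at 8.35 and 8.02 after IR. In the RBM6-KO1 libraries the values were 3.94 and 3.95 CPM untreated and 7.53 and 7.89 after IR. Again the libraries after IR lay above the untreated ones in each genotype. The log2 fold change was 0.95 in RBM6-KO1 cells (SE 0.23, adjusted p = 0.0484 by edgeR quasi-likelihood) and 0.61 in control cells (SE 0.27, adjusted p = 0.181). The call lay close to the threshold and was lost with 3 of the 4 libraries left out in turn, with adjusted p = 0.0564 by edgeR without untreated RBM6-KO1 replicate A, 0.149 without untreated RBM6-KO1 replicate B and 0.0888 without RBM6-KO1 replicate B after IR, at log2 fold changes from 0.93 to 0.96. The difference between the genotypes in the response of PDK2 was 0.34 (SE 0.32, adjusted p = 0.99998 by edgeR quasi-likelihood over all 8 libraries).

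Other members had positive values after IR without passing. HK2 was at 29.2 and 32.6 CPM in control libraries A and B untreated and at 42.6 and 58.1 after IR. The RBM6-KO1 libraries were at 37.7 and 27.8 CPM untreated and at 40.0 and 63.4 after IR. Its libraries after IR lay above the untreated ones in both genotypes, with replicate B the highest in each. The log2 fold changes were 0.70 in control cells (SE 0.20, adjusted p = 0.0640 by edgeR quasi-likelihood) and 0.64 in RBM6-KO1 cells (SE 0.24, adjusted p = 0.114). PFKFB2 had values of 0.63 and 0.58, PDK4 of 0.63 and 0.55, PDK3 of 0.56 and 0.31, and SLC16A1 of 0.39 and 0.44, each first in control and then in RBM6-KO1 cells.

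Along the pathway the enzymes differed in sign after IR, without passing. PGK1, which makes ATP in the payoff phase, had log2 fold changes of 0.29 in control and 0.47 in RBM6-KO1 cells, PGAM1 of 0.36 and 0.49, and PFKM of 0.31 and 0.49. SLC2A1 had values of 0.28 and 0.35, HK1 of 0.15 and 0.20, PGM1 of 0.15 and 0.21, PFKP of 0.13 and 0.17, ALDOC of 0.16 and 0.30, BPGM of 0.05 and 0.19, and ENO2 of 0.24 and 0.27. Values below 0 were seen for ENO1 (-0.26 and -0.30), PFKL (-0.22 and -0.26), TPI1 (-0.17 and -0.19), PKM (-0.15 and -0.18), ALDOA (-0.10 and -0.08), SLC16A3 (-0.25 and -0.08), PDK1 (-0.09 and -0.25) and G6PC3 (-0.07 and -0.04). The remaining values were those of LDHA (0.05 and 0.03), LDHB (0.01 and 0.05), PFKFB4 (0.05 and 0.10) and GPI (0.00313 and -0.00899).

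The libraries after IR did not overlap the untreated ones for 15 higher and 2 lower genes in control cells, beside 29.4% and 27.7% of all genes tested. In RBM6-KO1 cells they did not overlap for 18 higher and 3 lower genes, beside 32.6% and 29.5%. The 15 genes that were higher in control cells, SLC2A1, HK1, HK2, PGM1, PFKM, PFKP, GAPDH, PGK1, PGAM1, SLC16A1, PFKFB2, PFKFB3, PDK2, PDK3 and PDK4, were also higher in RBM6-KO1 cells. Thus 15 of the 30 genes were higher in both. Over all genes, 4537 of 15412 were higher without overlap in control cells, and 3185 of the 14866 tested in both (21.4%) were higher in both. ENO1 was the member that was lower without overlap in both, beside 18.9%. For PFKL, ALDOA, TPI1, ENO1, PKM and SLC16A3, replicate B of control cells after IR was the lowest of the 4 control libraries. Without replicate A of control cells after IR, the log2 fold changes of these 6 genes in control cells ran from -0.45 for ENO1 to -0.34 for ALDOA. HK2 was then at 0.92, PFKFB2 at 0.93, PDK4 at 0.83, SLC16A1 at 0.65 and PFKM at 0.38. Without replicate A of RBM6-KO1 cells after IR, the values of HK2, SLC16A1, PFKFB2, PFKFB3 and PDK4 in RBM6-KO1 cells were 0.95, 0.64, 0.84, 0.79 and 0.81. ENO1 ran from -0.43 to -0.14 in RBM6-KO1 cells with each library left out in turn.

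**Figure D3:**
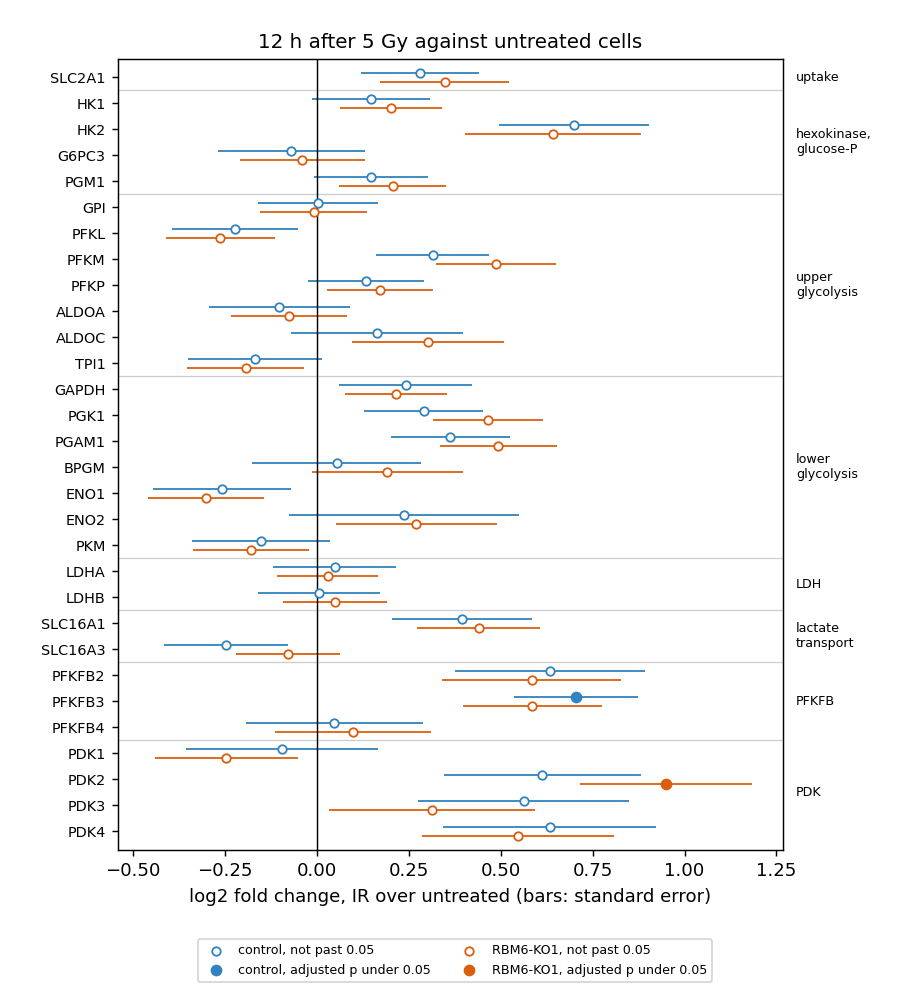
Log2 fold change of 12 h after 5 Gy over untreated for each of the 30 genes, in control and in RBM6-KO1 cells, with bars for the standard error and filled points for adjusted p under 0.05 by edgeR quasi-likelihood. The filled points are PFKFB3 in control cells at 0.70 and PDK2 in RBM6-KO1 cells at 0.95, and values below 0 belong to 8 genes in control and 9 in RBM6-KO1 cells.

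Whether the IR response differed between genotypes was tested as an interaction over all 8 libraries. None of the 30 genes passed by edgeR quasi-likelihood and Benjamini-Hochberg, nor did any of the 16549 genes tested (0%). At an unadjusted threshold of 0.05 there were 0 members, beside 1.85% of all genes, and DESeq2 called 0. The differences ran from -0.24 for PDK3 to 0.34 for PDK2, with a median of 0.04, and their standard errors ran from 0.18 for LDHA to 0.42 for PDK4.

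GAPDH (ENSG00000111640, chromosome 12, 6534512 to 6538374, plus strand) is often used as a reference for RT-qPCR. It was at 2425 and 2315 normalized CPM in control libraries A and B untreated and at 3096 and 2544 after IR. In the RBM6-KO1 libraries the values were 2239 and 2355 CPM untreated and 2757 and 2634 after IR. All 4 libraries after IR lay above all 4 untreated libraries, and the genotypes overlapped. Its log2 difference between genotypes was -0.06 untreated (SE 0.14) and -0.06 after IR (SE 0.16). After IR its log2 fold change was 0.24 in control cells (SE 0.18, adjusted p = 0.420 by edgeR quasi-likelihood) and 0.22 in RBM6-KO1 cells (SE 0.14, adjusted p = 0.322). With offsets for GC content and gene length it was 0.46 in control cells (adjusted p = 0.0438 by edgeR) and, for RBM6-KO1 cells, 0.47 (adjusted p = 0.0359), both past the threshold. GAPDH also has 65 pseudogene rows in the table, which took 3.44% to 5.06% of the reads of gene and pseudogenes together, so that part of its reads may be split.

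The SD of GAPDH's log2 CPM over the 8 libraries was 0.15, rank 8 among 17 common reference genes. HPRT1 had the smallest SD of these, 0.12, followed by RPLP0 at 0.13, and TFRC, the transferrin receptor, the largest at 0.55. Over all 16549 genes kept, 10.3% had a smaller SD than GAPDH. Within the 30 genes, LDHA was the steadiest, with an SD of 0.06 and values from 1330 to 1504 CPM, and 0.181% of genes had a smaller SD. LDHB followed at 0.08 and GPI at 0.09. The least steady members were PDK4 at 0.58, ALDOC at 0.52 and PFKFB2 at 0.50.

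**Figure D4:**
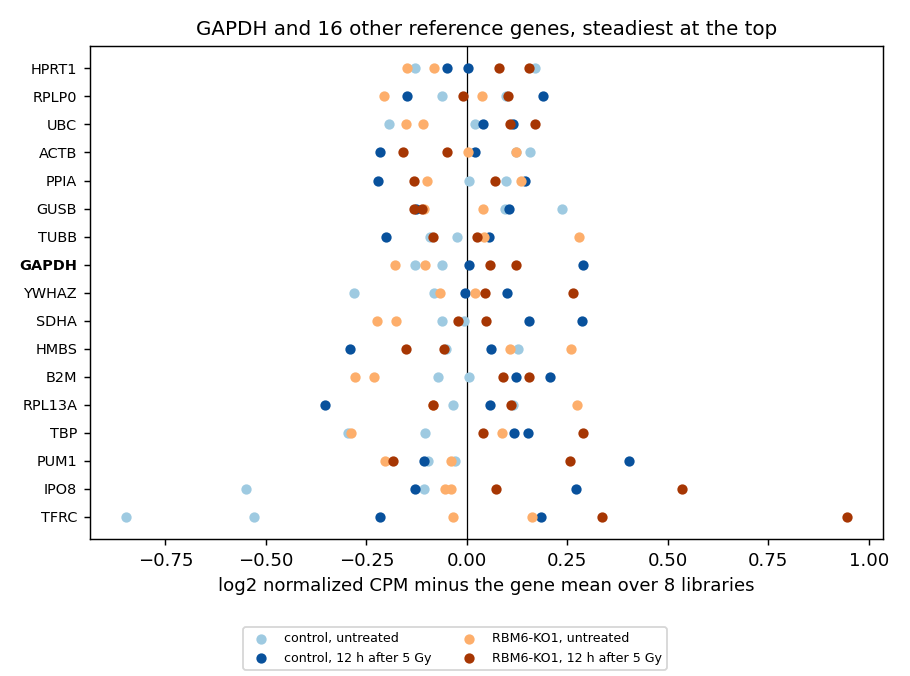
Log2 normalized CPM minus the gene's mean over the 8 libraries for GAPDH and 16 other reference genes, each point 1 library coloured by group, with the gene of smallest SD at the top. GAPDH is 8th of 17, and its 4 libraries after IR lie to the right of its 4 untreated libraries.

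Isozyme shares per kb are given for the other families without a test. PFKM took 16.8% and 17.2% of the phosphofructokinase level in the untreated control libraries, 19.7% ± 2.27 (SD, n = 2) in control cells after IR, 20.7% ± 1.80 in RBM6-KO1 cells untreated and 26.1% ± 1.45 in RBM6-KO1 cells after IR. Of the PDK level in RBM6-KO1 cells, PDK2 took 24.3% ± 0.583 untreated and 34.6% ± 2.84 after IR, and PDK1 32.0% ± 2.39 and 19.9% ± 1.83, without overlap between the libraries. In control cells PDK2 took 26.0% ± 7.47 and 28.2% ± 4.29, and PDK1 21.0% ± 7.33 and 13.7% ± 0.0235. By exon length PDK4 had the largest mean share in all 4 groups, from 36.8% to 52.5%, but with the longest transcript as the length PDK2 (41.6%) was above PDK4 (36.4%) in RBM6-KO1 cells after IR. HK1 took 84.4% to 91.8% of the hexokinase level over the 8 libraries and SLC16A3 took 72.4% to 85.1% of that of the 2 lactate transporters. ENO1 took 99.4% to 99.8% of the enolase level. LDHA took 42.8% to 44.7% of the lactate dehydrogenase level by exon length, and 50.9% to 52.9% when the longest transcript set the length, so that which isozyme is higher depends on the length used.

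Genes around the pathway were taken from lists written by name, and the shares of all genes that passed (6.12% untreated and 1.21% after IR between genotypes) are the background to their counts. Of 25 other transporters and isozymes tested in untreated cells, 3 passed, SLC2A3 lower and SLC16A7 and PGM2L1 higher in RBM6-KO1 cells, and the median log2 difference of the 25 was -0.07. SLC2A3, the neuronal-type glucose transporter GLUT3, fell by 2.96 on the log2 scale (SE 0.21, adjusted p = 1.09e-07 by edgeR quasi-likelihood) and differed by -2.56 after IR (SE 0.21, adjusted p = 0.00505). Its near-identical paralog SLC2A14 held 2 counts beside 3283 for SLC2A3. SLC16A7, the monocarboxylate transporter MCT2, had a log2 difference of 0.85 and PGM2L1 one of 0.81. Of 15 pentose phosphate and glycogen genes tested, with a median of 0.02, TKT, the transketolase, fell (-0.68), and UGP2, which makes UDP-glucose, rose by 1.23 untreated and by 1.20 after IR.

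Of 21 hypoxia-inducible genes outside glycolysis tested in untreated cells, 3 fell and 2 rose in RBM6-KO1 cells (3.73% and 2.38% of all genes), with a median log2 difference of 0.11. VEGFA, an angiogenic factor, was at -0.70, BHLHE40 at -0.63 and NDRG1 at -0.54, while STC2 was at 0.87 and CA12, a carbonic anhydrase, at 0.63. Of 19 regulators tested, with a median of -0.12, TXNIP, which restrains glucose uptake, fell by 1.25, MLXIPL, a glucose-sensing transcription factor, fell by 2.61, and FOXO1 rose by 0.60. After IR none of the 22 hypoxia-inducible genes or the 19 regulators tested passed between genotypes, beside 1.21% of all genes. None of the 6 PKM splicing factors passed between genotypes in either comparison.

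Some of these genes also passed for IR within a genotype, beside 5.72% of all genes in control and 5.67% in RBM6-KO1 cells. In control cells 2 of 26 other transporters and isozymes, 1 of 15 pentose phosphate and glycogen genes and 2 of 22 hypoxia-inducible genes passed. There 0 of 19 regulators and 0 of 6 PKM splicing factors passed. In RBM6-KO1 cells the counts in this order were 2 of 26, 2 of 15, 3 of 21, 2 of 18 and 1 of 6. TIGAR, a p53 target that lowers the activator of phosphofructokinase, rose in both genotypes, by 1.03 in control cells (SE 0.19, adjusted p = 0.0150 by edgeR quasi-likelihood) and by 0.95 in RBM6-KO1 cells (SE 0.17, adjusted p = 0.0195). PGM2 rose by 1.09 and 0.87, and GBE1, the glycogen branching enzyme, by 0.99 and 1.03. P4HA2 rose by 0.80 and 0.74 and MXI1 by 0.83 and 0.71. In RBM6-KO1 cells NDRG1, RPE, HIF1A and MYC also rose, by 0.67, 0.68, 0.89 and 0.77, and NEK2 fell (-0.93), and none of these 5 passed in control cells or in the interaction test.

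The log2 fold changes of all genes fell with GC content, with Spearman's rho of -0.29 and -0.31 across genes for RBM6-KO1 against control untreated and after IR, and -0.26 and -0.24 for IR in control and RBM6-KO1 cells. These are descriptions over 15309 to 15489 genes, which share libraries and are not independent replicates. The median GC content was 53.0% for the 30 genes and 47.8% over the genes tested in untreated cells. With the GC and length offsets, 3 members passed between genotypes after IR, SLC2A1, ALDOC and PDK4, all lower, beside 550 of 15587 genes. For IR in control cells 5 passed, PFKFB3, HK2, GAPDH, PGAM1 and PDK2, all higher, beside 2140 of 15412 genes.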

How the data were processed

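The authors aligned reads to hg38 (STAR and DESeq2 are named in the submitters' processing notes) and deposited raw counts per Ensembl gene, whole numbers without normalization. The counting tool, annotation version and strandedness are not given in the sources used here. TruSeq mRNA libraries were made from total RNA. Groups were taken from the labels. Replicates are described as biological, and a chi-square test of their counts showed more than sampling noise in each group (11.3 to 34.1 per degree of freedom).

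Symbols and positions are from GENCODE v44, which matched 57392 of 58233 identifiers. In R 4.3.3, edgeR 4.0.16 (TMM, filterByExpr, quasi-likelihood test) was fitted to the 4 libraries of each comparison and to all 8 for the interaction. P-values were adjusted by Benjamini-Hochberg over all genes tested, and a gene passed at an adjusted p under 0.05. The standard error is the log2 fold change divided by the square root of F. All 30 members passed the filter on low counts in every comparison. The limit of 3 counts was 0.101 to 0.195 CPM per library and covers counting error only.

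The members and lists were chosen with earlier results of these data known. All members were to be named, with genes of the other lists that passed at least 1 test. Alternatives were DESeq2 1.42.0, other normalizations and filters, a replicate block, GC and length offsets, pseudogene counts, a joint fit, the longest transcript and each library left out. The code was tested on simulated data.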

Additional observations from a re-analysis of the deposited data

How the results depend on the processing

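Of 2250 values of the 30 genes under alternative settings, 0 reversed a call, 11 lost one and 88 gained one. In 198 the sign differed where neither value passed. Members past the threshold in untreated RBM6-KO1 against control numbered 5 with the replicate block and GC and length offsets (1449 of all 15556 genes). With a 2-fold minimum there was 1 (486 of 15556). After IR the members past the threshold numbered 1 with DESeq2 (387 of 30123 genes) and 1 with no filter (711 of 30123). They numbered 3 with offsets (550 of 15587), 6 with the replicate block (2416 of 15587) and 7 with both (2653 of 15587). A fit of all 8 libraries gave 1 (476 of 16549). For IR in control cells members past it numbered 2 with DESeq2 (1122 of 30238 genes) and 2 with no filter (2074 of 30238). With the replicate block there were 0 (894 of 15412), with offsets 5 (2140), with both 5 (2035) and with a 2-fold minimum 0 (553). For IR in RBM6-KO1 cells members past it numbered 0 with upper-quartile normalization (970 of 15598 genes) and 5 with DESeq2 (1594 of 29793). They numbered 6 with no filter (2800 of 29793) and 0 with at least 10 counts in every library (840 of 13880). With the replicate block there were 0 (946 of 15598), with offsets 4 (1818), with both 2 (1590) and with a 2-fold minimum 0 (485). Leaving out each library in turn gave 2 to 4 members and a median from -0.14 to -0.041 for the untreated genotypes, 0 to 2 members and a median from -0.13 to 0.057 after IR, 0 to 12 members and a median from 0.056 to 0.21 for IR in control cells, 0 to 6 members and a median from 0.15 to 0.28 for IR in RBM6-KO1 cells, and 0 members and a median from 0.00337 to 0.15 for the interaction. These fits leave 1 library in a group and assume that it varies like the others. Their counts of members passed are therefore not read as results on the 30 genes. For IR in each genotype, the leave-out fit with the most members passed also had the most genes passed over all genes tested. The cause of the changes between settings was not tested. No label says that a replicate letter marks a shared day or batch. Deviations of same-letter libraries correlated over genes at 0.38 between the irradiated groups of the 2 genotypes. There the block raised the members passed from 0 to 6, all lower, and all genes passed from 189 to 2416 of 15587. Between the other pairs of groups the correlations ran from -0.30 to 0.08. With letters crossed between untreated and irradiated libraries, a setting chosen after seeing the data, 5 members passed for IR in control and 18 in RBM6-KO1 cells. Over all genes, 3973 of 15412 passed in control and 6926 of 15598 in RBM6-KO1 cells with this setting.

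With the longest transcript in place of exon length, 48 of 80 isozyme shares moved by more than 1 SD, and leaving out mitochondrial genes moved the members' share of counts in all 8 libraries. Fewest counts over the 8 libraries were held by PDK3 (676), PDK2 (997) and ENO2 (1289), which limits the precision of their values.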
